A study of Mus musculus with 8 samples.

Results

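The TAFA genes, Tafa1 to Tafa5 (older symbols Fam19a1 to Fam19a5), encode a family of 5 small secreted proteins. Their H3K27me3 was read from a chromatin immunoprecipitation experiment in mouse 3T3 cells, an immortalised fibroblast line. The experiment had 3 H3K27me3 libraries from cells with a control construct and 3 from cells with a construct overexpressing NNMT, nicotinamide N-methyltransferase, plus 1 input library for each construct. Before fixation, every culture spent 48 h at 10 µM methionine with dialyzed serum, and all immunoprecipitations used the antibody clone C36B11. The labels do not say whether the cell populations were clones, which promoter drove the construct, or what the control construct held. The members were chosen by position and by measured values together. Of the 265968 regions that the authors' deposited table lists for a difference between 2 sets of 3 libraries, 248 overlapped the RefSeq span of a TAFA gene extended by 2 kb on each side. The table does not say which set is NNMT, so they are called set 1 and set 2 in the order listed, and no direction below is tied to NNMT. The 6 values of each region are whole numbers of unstated normalization. Because the table lists only regions that differed, the values are a description, and no test was made on them.

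TAFA proteins resemble chemokines in their conserved cysteines and are known mainly from the brain and from sensory neurons, where family members act as secreted ligands and as partners of neurexins, the presynaptic adhesion proteins. H3K27me3 is the histone mark written by Polycomb repressive complex 2, and it usually covers genes that are silent in a given cell type, often as broad domains around CpG-rich start sites. In fibroblasts, genes of neuronal function are typical carriers of such domains.

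The starts of the TAFA genes differ in CpG content, and CpG-rich starts are where Polycomb complexes are usually found. The 250 bases before the start are shown for Tafa5 (chr15:87544049-87544298, plus strand), Tafa4 (chr6:97060412-97060661, minus strand) and Tafa1 (chr6:96112904-96113153, plus strand). They come from RefSeq, build GRCm38.p6, read 5′ to 3′ with every CG dinucleotide in capitals, and all 5 genes matched that table by symbol. These 3 were picked because they span the range of CpG content and of the distance to the nearest listed region.
Tafa5: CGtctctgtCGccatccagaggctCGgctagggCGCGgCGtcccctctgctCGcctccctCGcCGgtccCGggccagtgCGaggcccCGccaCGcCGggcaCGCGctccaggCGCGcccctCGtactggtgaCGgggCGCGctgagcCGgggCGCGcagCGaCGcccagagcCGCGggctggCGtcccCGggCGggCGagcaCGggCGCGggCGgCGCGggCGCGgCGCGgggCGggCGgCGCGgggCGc
Tafa4: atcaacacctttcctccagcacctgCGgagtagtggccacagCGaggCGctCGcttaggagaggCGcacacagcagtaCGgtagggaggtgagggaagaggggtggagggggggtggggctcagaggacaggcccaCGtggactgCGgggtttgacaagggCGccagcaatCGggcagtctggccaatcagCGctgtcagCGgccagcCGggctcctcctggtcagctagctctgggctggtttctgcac
Tafa1: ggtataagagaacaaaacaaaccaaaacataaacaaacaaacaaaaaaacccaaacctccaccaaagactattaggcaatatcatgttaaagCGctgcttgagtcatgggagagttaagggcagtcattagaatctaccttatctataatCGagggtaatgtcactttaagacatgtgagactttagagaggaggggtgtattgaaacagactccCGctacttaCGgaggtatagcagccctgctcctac

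The Tafa5 stretch held 48 CG dinucleotides, more than 99.8% of the 32851 promoters in the RefSeq table, and 83.6% of its bases were G or C. The Tafa4 stretch held 13 and the Tafa1 stretch 4, against a median of 6 over all promoters, 92.1% of which held at least 1 CG. Tafa2 and Tafa3 held 6 each. A second Tafa5 start, inside the gene (chr15:87624980-87625229), held 38. A listed region lay over the 300-base promoter window of Tafa3 and of Tafa4, as it did for 11.4% of all promoter windows. None lay over either Tafa5 window, and the regions nearest to the 2 Tafa5 starts were 1552 and 3530 bases away. The nearest to the Tafa2 start was 1876 bases away and the nearest to the Tafa1 start 30547. A start without a listed region is one where no difference was listed, and its level of the mark is not known from this table. The most CpG-rich starts of the family were thus not among those with a listed region.

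All 5 genes carried listed regions, against 32.2% of the 20490 named protein-coding and long noncoding genes. The family was chosen with measured values known, and Tafa1, Tafa2, Tafa4 and Tafa5 have long spans, of 215 to 544 kb. The 2 shares are thus not a like comparison. Tafa1 held 85 regions, Tafa5 78, Tafa4 72, Tafa3 7 and Tafa2 6. Of the 248 regions, 204 had a higher sum in set 2 and 44 in set 1, whereas over all listed regions set 2 was higher in 40.5% and set 1 in 59.5%. The values of the 2 sets did not overlap in 178 of the 248 (71.8%), against 65.1% of all listed regions. Tafa5 gave 78 of these 178, from all 78 of its regions. The counts were 53 of 85 for Tafa1, 41 of 72 for Tafa4, 3 of 7 for Tafa3 and 3 of 6 for Tafa2. Each of these 4 shares was below that of all listed regions. The family was uneven. Tafa5 and Tafa1 were higher in set 2, Tafa3 was higher in set 1, Tafa4 held both directions in near balance, and the sets overlapped at Tafa2. Over named genes with a listed region, 30.3% had a higher sum in set 2.

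The value per kilobase of listed region put the genes in a different order in the 2 sets. It rests only on regions listed for a difference, which covered from 0.199% (Tafa2) to 38.2% (Tafa3) of a span. The order thus describes the listed regions and does not rank the genes by their level of the mark. In set 1 it was highest for Tafa4 (210 to 219 over the 3 libraries), then Tafa3 (174 to 197), Tafa2 (103 to 158), Tafa1 (86.2 to 101) and Tafa5 (19.0 to 22.9). No neighbours in that order overlapped. In set 2 the order was Tafa5 (225 to 256), Tafa4 (206 to 226), Tafa2 (143 to 185), Tafa1 (161 to 182) and Tafa3 (122 to 129). There, the libraries of Tafa5 and Tafa4 overlapped, as did those of Tafa2 and Tafa1. Tafa5 thus stood last in set 1 and overlapped Tafa4 at the top in set 2.

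**Figure D1:**
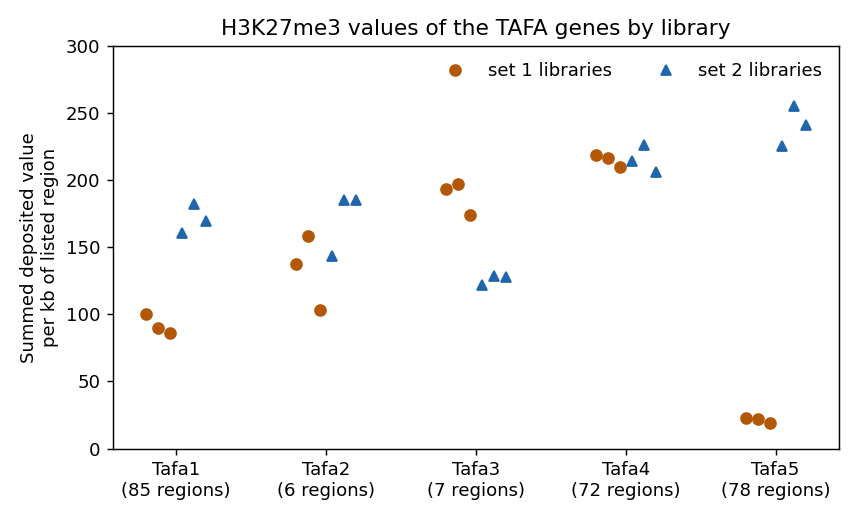
Summed deposited value per kb of listed region (vertical axis from 0) for each TAFA gene, each library drawn as a circle (set 1) or a triangle (set 2). Tafa5 lies between 19.0 and 22.9 in set 1 and between 225 and 256 in set 2, while the sets of Tafa4 and Tafa2 overlap.

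Tafa5 encodes a secreted protein that is abundant in the brain, and it showed the widest difference of the family. Its span (chromosome 15, 87544219 to 87759364, plus strand, 215 kb) held 78 listed regions. All 78 were higher in set 2, all 78 had sets that did not overlap, and all 78 differed by 2-fold or more, a size reached towards set 2 by 12.9% of the listed regions. Summed over the gene, the values came to 437, 424 and 363 (set 1) against 4303, 4882 and 4603 (set 2). Every set 2 library stood far above every set 1 library. The sums differed by 11.3-fold (9.85 to 13.4 over the 9 possible pairings of libraries across sets), a log2 ratio of set 1 over set 2 of -3.49. This was the lowest of the 4132 named genes that carried at least 5 regions. The log2 ratio lay between -3.54 and -3.42 when any 1 library was left out. Galnt9, which adds mucin-type sugars, was the only other gene with 50 or more regions whose regions all pointed 1 way without any overlap of the sets, and it pointed towards set 1. It is named here because of these values. Of the 471 genes with 50 or more regions, 22.1% had all of them in 1 direction.

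The values of Tafa5 in set 1 were close to 0. In 53 of its 78 regions at least 1 set 1 library had the value 0, and in 9 regions all 3 did, while no set 2 library was at 0 in any. The longest region, 4000 bp long and 1.95 kb inside the gene (chromosome 15, 87546251 to 87550250), stands in the authors' deposited table at 96, 90 and 83 for set 1 against 1146, 1343 and 1254 for set 2. It also held the largest sum and differed by 13.9-fold (11.9 to 16.2 over pairs). Without it the other 77 regions still differed by 10.5-fold, a log2 ratio of -3.39. The region with the widest difference among those summing to at least 100 (87586301 to 87586550) is listed at 0 for all 3 set 1 libraries in the authors' deposited table, against 64, 37 and 65 for set 2. The narrowest among them (87557751 to 87558000) is given as 30, 6 and 2 against 45, 70 and 33 in the authors' deposited table, 3.82-fold apart (1.1 to 35.0 over pairs). Most Tafa5 regions were short, with a median length of 100 bp against 450 bp over the whole table, so single ratios rest on small values and the sum is the steadier measure.

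The regions of Tafa5 lay in the first part of the gene. With gaps of up to 5 kb bridged, 76 of them fell into 3 blocks. The first ran from 1.55 to 15.4 kb from the start and held 25 regions covering 65.0% of it. The second held 31 regions from 23.5 to 46.8 kb, and the third held 20 from 58.0 to 69.7 kb. Their log2 ratios were -3.59, -3.68 and -3.10. The last 2 regions lay singly at 77.4 and 91.6 kb, on either side of the second start. The remaining 123 kb of the gene held none. Both CpG-rich starts lay outside the blocks. The annotation used here gives gene spans and no exons, so regions were not assigned to exons or introns.

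The difference at Tafa5 went on beyond the gene. In the 500 kb before the gene, 83 of 83 listed regions were higher in set 2, at a summed log2 ratio of -2.36 (-2.82 to -2.10 over pairs). In the 500 kb beyond its end, 243 of 243 were, at -2.02 (-2.35 to -1.86). The gene sat inside a run of 779 consecutive listed regions, all higher in set 2, that spanned 2.05 Mb (chromosome 15, 86511651 to 88564450). Among the 52055 such runs of the table, 3 were longer. The 701 regions of the run that lay outside the gene had a log2 ratio of -1.11. In windows of 25 kb the log2 ratio reached -3.73 within the gene, in a window with 29 regions covering 5550 bp. Before the gene it reached -3.60, in a window with only 3 regions covering 200 bp. In the windows beyond the gene it lay between -3.15 and -1.16, the latter at the far end. On chromosome 15 as a whole 47.0% of the listed regions were higher in set 2. The 2 input libraries have no values in this table, and no source used here says whether the values were corrected for them, so the DNA content of this locus was not tested.

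**Figure D2:**
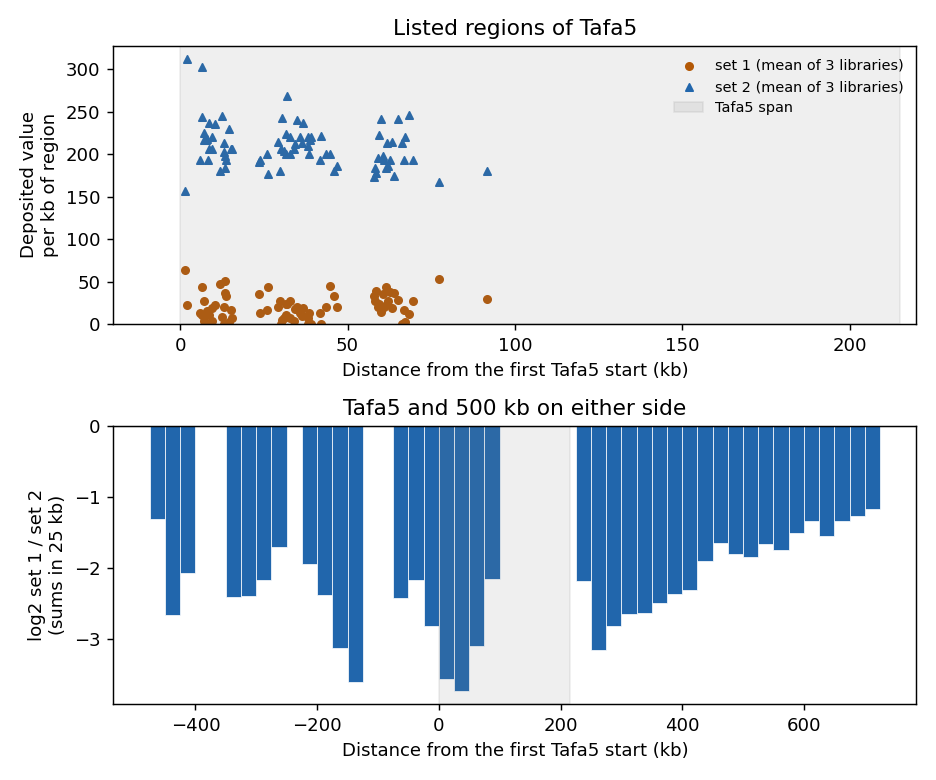
Upper panel: mean value of each set per kb of region for the 78 listed regions of Tafa5 against distance from the first start in kb, drawn as circles (set 1) and triangles (set 2) over the gene span in grey. Lower panel: log2 ratio of set 1 over set 2 for values summed in 25 kb windows across the gene and 500 kb on either side, where every window with a listed region lies below 0 and gaps are windows with none.

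Tafa1, whose protein has been reported as a ligand of the receptor Gpr1 and as a neurexin partner, was also higher in set 2, by a smaller factor. Its span (chromosome 6, 96113154 to 96657204, plus strand, 544 kb) held 85 regions, of which 83 were higher in set 2 and 2 in set 1. The summed values came to 3038, 2708 and 2602 (set 1) against 4853, 5503 and 5125 (set 2). Without overlap between sets, the sums differed by 1.85-fold (1.6 to 2.11 over pairs), a log2 ratio of -0.89. Among the 85 single regions, 53 had sets that did not overlap and 47 differed towards set 2 by 2-fold or more. The regions were small, with a median length of 300 bp and a maximum of 1400 bp, and covered 5.55% of the span.

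Listed regions of Tafa1 lay far from its start. The first, 50 bp long, was 30.5 kb into the gene, and the other 84 began between 214 and 532 kb. The 14 windows of 25 kb within the gene that held a region were all higher in set 2, with log2 ratios of -1.75 to -0.48. The longest region, which also had the largest sum (96477301 to 96478700), is given in the authors' deposited table as 148, 184 and 196 for set 1 against 177, 321 and 238 for set 2. Its sets overlapped, at 1.39-fold (0.903 to 2.17 over pairs). The widest difference among regions summing to at least 100 (96462101 to 96462300) was 0, 15 and 3 against 47, 32 and 38 in the authors' deposited table, a log2 ratio of -2.63. One of the 2 regions higher in set 1 (96521301 to 96522000) has 129, 101 and 112 against 76, 88 and 55 in the authors' deposited table, without overlap and 1.56-fold apart (1.15 to 2.35 over pairs). The difference at Tafa1 was thus spread over many small regions rather than held by 1 of them.

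Tafa4, known from sensory neurons that sense touch and pain, lies 174 kb beyond the end of Tafa1 and is read from the opposite strand (chromosome 6, 96831206 to 97060411, minus strand, 229 kb). Its 72 regions were split, with 34 higher in set 1 and 38 in set 2. The summed values came to 11582, 11466 and 11094 (set 1) against 11355, 11988 and 10899 (set 2). These overlapped, with a ratio of 0.997 (0.925 to 1.06 over pairs, set 1 over set 2). In 41 of the 72 regions the sets did not overlap. A difference of 2-fold or more was seen in 2 regions towards set 1 and in 4 towards set 2, against 22.3% and 12.9% of all listed regions. Along the gene the direction changed 36 times between consecutive regions. In 15 cases consecutive regions touched end to end, and all 15 pairs were of opposite direction. These 15 are among the 36 changes. How the regions were built is not stated. If touching stretches of 1 direction were joined into 1 region, touching pairs could only be of opposite direction. The 15 pairs are thus not read as a trait of Tafa4. The other 4 genes held 0 touching pairs of any kind, so the direction of such pairs cannot be compared with theirs.

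Listed regions of Tafa4 were densest at its start. A block of 55.05 kb that included the start (97008451 to 97063500) held 36 regions and was 64.8% covered. There the value per kb was 247 to 259 in set 1 and 231 to 245 in set 2, and the log2 ratio was 0.09 (0.01 to 0.17 over pairs). The other 36 regions, 1 of them in the flank beyond the gene's end, had values per kb of 131 to 135 in set 1 and 152 to 189 in set 2, a log2 ratio of -0.31 (-0.53 to -0.17). In neither part did the sets overlap, and the 2 parts pointed in opposite directions. That contrast depends on the scale: with the sums of all listed regions made equal between sets, the start block was at -0.11 and the rest at -0.51, both towards set 2. The region over the start itself (97059051 to 97061950) stands at 794, 665 and 823 against 659, 624 and 470 in the authors' deposited table, 1.3-fold higher in set 1 (1.01 to 1.75 over pairs). The longest, beside it (97055101 to 97058250), was 726, 824 and 824 against 566, 742 and 684 in the authors' deposited table, with overlapping sets at 1.19-fold (0.978 to 1.46 over pairs).

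Deep inside the Tafa4 gene, short regions reached wider ratios in both directions. One at 212 kb from the start (96848001 to 96848300) was 15, 18 and 25 against 63, 41 and 56 in the authors' deposited table, 2.73-fold higher in set 2 (1.64 to 4.2 over pairs). Another at 141 kb (96919051 to 96919250) was 23, 46 and 25 against 10, 16 and 11 in the authors' deposited table, 2.5-fold higher in set 1 (1.44 to 4.6 over pairs). Neither pair of sets overlapped, and both rest on small values.

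Tafa1 and Tafa4 are neighbours, and the direction varied along the stretch that holds them. The 16 listed regions in the gap between the 2 genes and their flanks had 12 higher in set 1 and 4 in set 2, with a log2 ratio of 0.40 (0.19 to 0.55 over pairs). The Tafa4 regions nearest the gap pointed back towards set 2. With gaps of up to 5 kb bridged, the block at the gene's end was at -0.44 (-0.85 to -0.14). The next block was at -0.78 (-1.04 to -0.48). On the far side of Tafa1, before its start, 16 of 17 regions within 500 kb were higher in set 2 (log2 ratio -0.88). On the far side of Tafa4, before its start, 162 of 204 were higher in set 1 (log2 ratio 0.34). Most listed regions from before Tafa1 to its end were thus higher in set 2, and most before the Tafa4 start were higher in set 1.

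**Figure D3:**
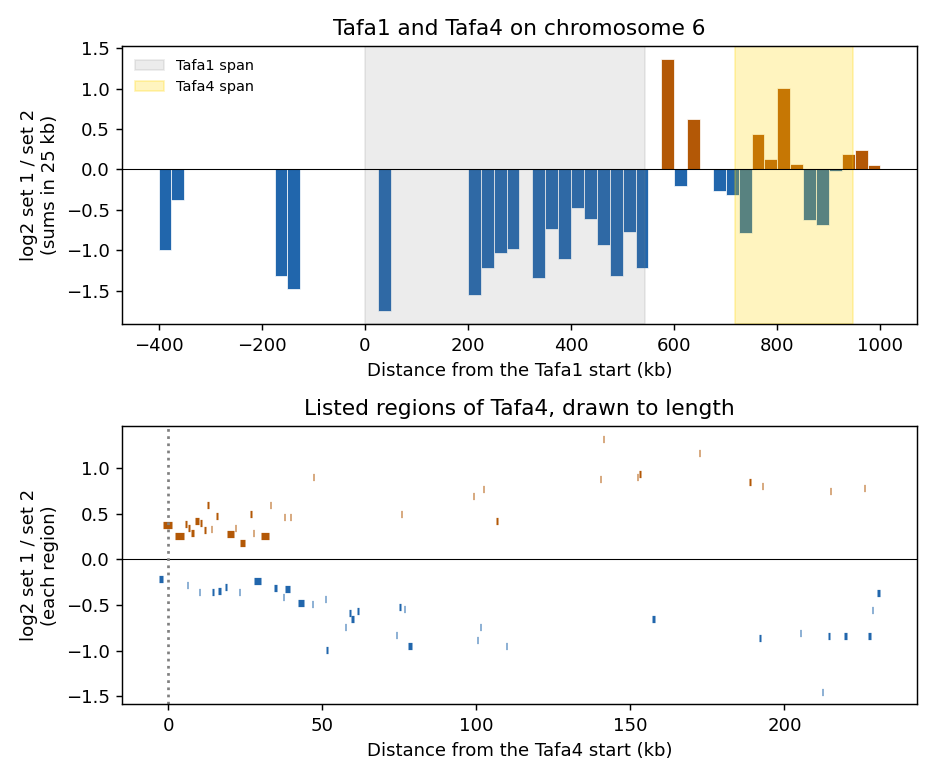
Upper panel: log2 ratio of set 1 over set 2 in 25 kb windows against distance from the Tafa1 start in kb, with bars above 0 in orange and below 0 in blue, the Tafa1 span in grey and the Tafa4 span in yellow; the 14 windows within Tafa1 lie below 0. Lower panel: log2 ratio of each of the 72 regions of Tafa4 against distance from its start in kb, drawn to length, with long regions near 0 close to the start and shorter ones further from 0 inside the gene.

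Tafa3, a short gene of 12.1 kb (chromosome 3, 104767405 to 104779542, minus strand), was the member whose regions were all higher in set 1. There were 7 of them, and 38.2% of the span was covered. The summed values came to 967, 984 and 869 (set 1) against 610, 643 and 640 (set 2). Sums of the 2 sets did not overlap and differed by 1.49-fold (1.35 to 1.61 over pairs), a log2 ratio of 0.57. Of the 4132 named genes with at least 5 regions, 1277 had a higher ratio. The median over all named genes with a listed region was 0.38, so a ratio of this size was common. Single regions had sets that did not overlap in 3 of 7 cases. Leaving out 1 library in turn gave 3 to 6, the most without the second listed library of set 2. Such a count can only stay or rise with fewer libraries. The longest region, of 2450 bp and over the RefSeq start (104777351 to 104779800), is given as 514, 511 and 431 against 311, 310 and 369 in the authors' deposited table, without overlap and 1.47-fold higher in set 1 (1.17 to 1.66 over pairs). The widest difference among regions summing to at least 100 (104772851 to 104773250) was 69, 71 and 70 against 23, 33 and 41 in the authors' deposited table, 2.15-fold higher in set 1 (1.68 to 3.09 over pairs). The narrowest (104775901 to 104776800) was 158, 204 and 161 against 111, 167 and 140 in the authors' deposited table, and its sets overlapped at 1.25-fold (0.946 to 1.84 over pairs).

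Listed regions next to Tafa3 on both sides pointed the same way. The gene sat in a run of 42 consecutive regions higher in set 1 that spanned 349 kb (chromosome 3, 104723651 to 105073100), and the 35 of them outside the gene had a log2 ratio of 0.88. Over the full 500 kb the sides differed: beyond its end 86 of 87 regions were higher in set 1 (log2 ratio 0.82), and before its start 53 of 104 were (log2 ratio -0.11). Runs longer than 42 regions occurred 965 times in the table. With a flank of 10 kb in place of 2 kb the number of Tafa3 regions was 17, all higher in set 1, and 11 had sets that did not overlap. That flank runs across the neighbouring gene Ppm1j (104780952 to 104786023), so part of the added regions lie in Ppm1j.

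Tafa2, a brain-expressed member whose gene spans 477 kb (chromosome 10, 123264024 to 123741204, plus strand), had little in the table. Its 6 regions covered 0.199% of the span, 5 higher in set 2 and 1 in set 1. The summed values came to 241, 277 and 181 (set 1) against 251, 324 and 324 (set 2), which overlapped (log2 ratio -0.36, -0.84 to 0.14 over pairs). The region with the largest share of the sum lay before the start, in the flank (123261401 to 123262200). In the authors' deposited table it stands at 150, 141 and 88 against 140, 163 and 169, also with overlap. Inside the gene, a region of 150 bp (123298151 to 123298300) was 15, 17 and 10 against 27, 27 and 26 in the authors' deposited table, and 1 of 300 bp (123323301 to 123323600) was 42, 62 and 43 against 26, 24 and 51 in the other direction. The sets did not overlap in 3 of the 6. Leaving out 1 library in turn, which can only keep or raise this count, gave 3 to 5, the most without the first listed library of set 2. No listed region began beyond 136 kb into the gene, nor within 500 kb of its end, and only 1 of the 6 had an authors' p under 0.05.

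**Figure D4:**
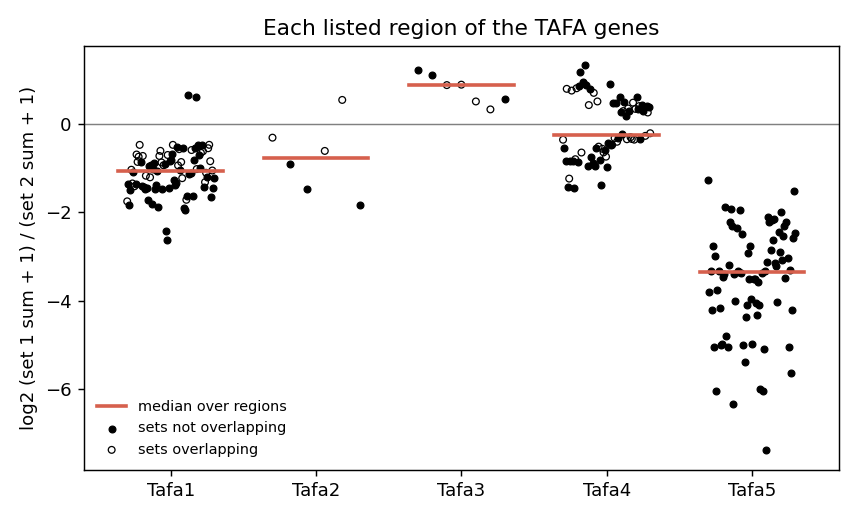
Log2 ratio of set 1 over set 2 for each listed region of the 5 genes, in order of position within a gene, filled where the values of the 2 sets do not overlap and open where they do, with the median over regions as a line. The medians are -1.06 for Tafa1, -0.76 for Tafa2, 0.87 for Tafa3, -0.26 for Tafa4 and -3.36 for Tafa5, and all points of Tafa5 are filled.

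The edge of the 2 kb flank decided few regions at Tafa1, Tafa4 and Tafa5 and weighed more at Tafa2 and Tafa3. Just inside it lay the Tafa2 region at 1.82 kb from the span, a Tafa3 region at 1.96 kb with 26, 13 and 11 against 10, 4 and 7 in the authors' deposited table, and 2 Tafa4 regions. Just outside it, the nearest regions were 2.105 kb (138, 127 and 122 against 58, 34 and 61) and 4.06 kb from Tafa3, 3.09 kb from Tafa4, 3.17 kb from Tafa2 and 3.47 kb from Tafa5 in the authors' deposited table. Tafa1 had no listed region within 54.7 kb of its span on either side. With a flank of 5 kb, Tafa3 held 11 regions higher in set 1 in place of 7. Its log2 ratio moved from 0.57 to 0.74. The log2 ratio of Tafa2 went from -0.36 to -0.12, a change within the spread between its libraries.

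Summed over all listed regions, set 1 was higher than set 2 by a log2 shift of 0.19. Relative to that shift, which equal sums of the 2 sets would remove, the log2 ratios were -3.69 for Tafa5, -1.09 for Tafa1, -0.56 for Tafa2, -0.20 for Tafa4 and 0.38 for Tafa3. The direction of the sum was the same with and without the shift for each of the 5 genes, although that of Tafa4 was near 0 before it. After rescaling, set 1 was higher in 33 Tafa4 regions and set 2 in 39.

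Genes reported to encode partners of TAFA proteins were looked up in the same way. Nrxn2, a neurexin, held 52 regions, 46 of them higher in set 1 (log2 ratio 0.32, 0.23 to 0.42 over pairs). Lrrc4b, a postsynaptic adhesion protein, held 13, with 11 higher in set 1 (0.38, 0.33 to 0.48). Gpr1, which is also a chemerin receptor, held 4, with 2 in each direction (0.43, 0.16 to 0.80). Fpr1, a formyl peptide receptor, held 2 whose sets overlapped (-0.52, -1.23 to 0.33). No region was listed for Nrxn3, for the receptors Fpr2 and S1pr2, or for Lrp1, an endocytic receptor. The sums of Nrxn2, Lrrc4b and Gpr1 did not overlap between sets, and each was higher in set 1.

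**Figure D5:**
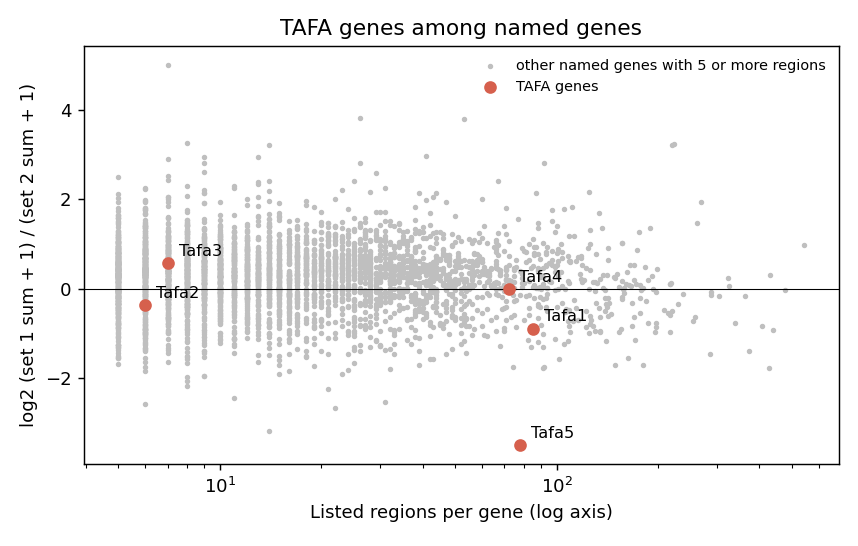
Log2 ratio of set 1 over set 2 for values summed per gene against the number of listed regions per gene (log axis), for the 4132 named genes with at least 5 regions in grey and the 5 TAFA genes in red. Tafa5, with 78 regions at -3.49, is the lowest point.

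The genes whose 6 library sums were shaped most like those of a TAFA gene were found by Euclidean distance between log2 shares over the 6 libraries, among genes with at least 5 regions. For Tafa5 the nearest was Syndig1, a synapse protein, at a distance of 0.80, with 14 regions all higher in set 2 and sums of 37, 26 and 18 against 273, 214 and 248. It was followed by Lrrtm3 (1.3) and Pdzrn4 (1.54), so no gene was close. For Tafa1 they were Dnah9, a dynein of cilia (0.079), Adgrg7 and Trpm3, an ion channel. For Tafa4 they were Asic2, an acid-sensing channel (0.026), and Nol4l, and for Tafa3 they were Sgce, a sarcoglycan (0.04), Itgax and Abcc6. For Tafa2 they were Kcnd2, a potassium channel (0.22), Nek10 and Glycam1. Such likeness rests on 2 sets of 3 libraries and says no more than that the sums were divided alike.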

How the data were processed

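Chromatin from mouse 3T3 cells was digested with micrococcal nuclease, per the labels' protocols. The submitters' processing notes name BWA 0.7.17, Trimmomatic 0.36, CASAVA and build GRCm38. The sources used here give neither the program that listed the regions nor how it normalized them or used the inputs. The deposited table has no header. Each row holds a region, whole-number values for 2 sets of 3 libraries, whose normalization the authors do not state, and the authors' −log10 p, as read from its range. The values may be rescaled counts, so no count model was fitted. Depth is unknown. Values summed over the 265968 regions came to 41830498, 41971892 and 39899303 (set 1) against 35600997, 36958436 and 35565866 (set 2).

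Regions (any p, highest 0.1) were assigned to RefSeq spans (GRCm38.p6) extended by 2 kb. Sums were compared as log2 ratios after adding a pseudocount of 1. The error is the range over 9 library pairs, with no pseudocount for whole members and single regions. Library order within a set is not given, so no mean ± SD is printed. The labels call the libraries biological replicates. Start sites came from the RefSeq promoter table. Overlaps of 205 genes were checked by brute force, with 0 differing. Named regions were, per gene, the longest, the one with the largest sum, the highest and lowest log2 ratio among those with a sum of at least 100, and any over a start; the 3 genes most alike were sought per member. A few genes that these rules pick out are not reported here. The members, the partner list and the named-region rule were chosen with earlier results of these data known. The planned protein comparison was not made, since no protein table was used here. Python 3.11.15, pandas 2.3.3, numpy 2.4.6 and matplotlib 3.10.9 were used.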

Additional observations from a re-analysis of the deposited data

How the results depend on the processing

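Of 294 values recomputed under the alternatives, 255 stayed within the spread between libraries or within 1.5 times the count, and 39 moved. The log2 ratio was below 0 in 17 of 17 alternatives for Tafa5 (-3.69 to -3.36) and Tafa1 (-1.09 to -0.84) and in 16 of 16 for Tafa2 (-1.83 to -0.12), and below 0 in 0 of 17 for Tafa3 (0.38 to 0.87). For Tafa4 it was below 0 in 9 of 17 (-0.26 to 0.05). Equal sums gave -1.09 (Tafa1), 0.38 (Tafa3), -0.20 (Tafa4) and -3.69 (Tafa5). The median over regions gave -1.06, -0.76, 0.87 and -0.26 for Tafa1 to Tafa4, and regions with sets apart gave -1.29 for Tafa2. Flanks of 5 and 10 kb gave 0.74 for Tafa3 both times, with 11 and 17 regions higher in set 1, 7 and 11 of them apart, and 2 regions of Tafa2 higher in set 1. At Tafa3 both flanks reach into the neighbouring gene Ppm1j. At p under 0.05, Tafa2 kept 0 regions higher in set 1 and 1 in set 2, which was apart (log2 ratio -1.83), Tafa1 kept 1 higher in set 1 and Tafa3 kept 4. At p under 0.01, Tafa2 had 0 regions and no ratio, Tafa3 had 2 and Tafa4 17 higher in set 1, Tafa1 had 1 in set 1 and 43 in set 2 (33 apart), and Tafa4 had 16 in set 2 (24 apart in all). These settings keep fewer regions by construction. With sums of at least 100, Tafa5 had 32 regions in set 2, all 32 apart, and Tafa2 had 3 in set 2 and 1 apart. Leaving out 1 library in turn gave 3 to 5 regions apart for Tafa2 and 3 to 6 for Tafa3, counts that can only stay or rise with fewer libraries. No paired analysis was possible because the values carry no replicate numbers. Depth is unknown, and the set 1 values of the short Tafa5 regions are near 0.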

Other observations

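Few other protein-coding genes near the TAFA genes carried listed regions. None lies within 500 kb of Tafa5 in the annotation, so the long stretch higher in set 2 around it holds no other protein-coding gene at that distance. Of 10 within 500 kb of Tafa3, 3 carried regions. These were Ppm1j, a protein phosphatase, with 7 of 7 higher in set 1 (log2 ratio 0.82, 0.44 to 1.06 over pairs), Rhoc, a small GTPase, with 1 region of 50 bp, and 4930564D02Rik with 4 of 5 higher in set 1 (0.55). The other 7, Wnt2b and Mov10 among them, carried none. The extended Ppm1j span takes in the 2450 bp region over the Tafa3 start, so that region is counted for both genes. It holds 514, 511 and 431 of the Ppm1j sums of 968, 952 and 769 in set 1. In set 2 it holds 311, 310 and 369 of 488, 464 and 568. The Ppm1j values are thus not separate from those of Tafa3.

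Near Tafa4, Frmd4b, a scaffold protein, held 192 regions, 148 of them higher in set 1, with sums of 35979, 36192 and 34248 against 28017, 30041 and 28793 (log2 ratio 0.29, 0.19 to 0.37 over pairs). Lmod3, an actin nucleator of muscle, held 3, all higher in set 1 (1.15, 0.52 to 2.05 over pairs), and the genes between Tafa4 and Lmod3 (Eogt, Tmf1, Uba3 and Arl6ip5) held none. Lmod3 and most of the Frmd4b span lie in the 500 kb before the Tafa4 start. Many regions of these 2 genes are thus among the 204 counted there, and the values are not separate. Near Tafa2, 1 of 3 genes carried regions, Ppm1h, with 18 of 30 higher in set 1 (0.17, 0.02 to 0.32 over pairs, and -0.02 with the sums of all listed regions made equal).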
